A study of Mus musculus with 3 samples.

Results

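The 50 genes described here drive DNA replication and mitosis. They were taken as a named list of 26 genes of the G1/S transition and DNA replication and 24 genes of G2 and mitosis, matched by symbol or accession to 83 probes of a whole-genome mouse array. Of the 50, 48 had a probe well above background on at least 1 array (of 14562 such genes in the whole series), and 47 were measured on all 3 arrays (of 12327). Those 47 comprised 24 G1/S and replication genes and 23 G2 and mitosis genes. The rule that lists them uses no measured value.

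The cells were peritoneal macrophages of male Swiss albino mice aged 8 weeks, in groups of 10. In every group, 125 µg lipopolysaccharide was injected into the peritoneum on day 0 to recruit macrophages. On day 4 the mice were given 100 ng TPA, a phorbol ester that activates protein kinase C, either alone, or with 35 nmol or 70 nmol of hexavalent chromium, Cr(VI), as dichromate. The peritoneal cells were collected by lavage 4 days after that. The protocol counts the doses as nmol of the dichromate salt and the sample labels as nmol of Cr(VI). Each of the 3 groups had 1 array, and the labels do not settle whether its RNA came from 1 mouse or from a pool. Every group carried both lipopolysaccharide and TPA, so no array shows untreated cells. Lipoic acid, named in the title of the study, was given on none of the arrays analysed here.

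A cell that leaves rest makes D-type cyclins, which with Cdk4 and Cdk6 phosphorylate the retinoblastoma protein and so free E2F factors to switch on the genes of DNA replication. MCM helicases are then loaded on replication origins by Cdc6 and Cdt1 and open the DNA for the polymerases. In G2, cyclins A and B with Cdk1 bring on mitosis, in which kinesins, kinetochore proteins and the anaphase-promoting complex separate the chromosomes. Genes of G1/S are typically read through E2F sites, and those of G2/M through a cell cycle homology region (CHR), often beside CCAAT boxes. Resident peritoneal macrophages can divide in place, and recruited macrophages mostly arrive as monocytes from the bone marrow.

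Promoters of 6 genes are printed to show these letters in genes whose values are described further on, with 3 genes of replication before 3 of mitosis. They come from RefSeq, build GRCm38.p6, run from 250 bases before a start to 50 after it, and are written 5′ to 3′ on the strand of the gene. Capitals mark every match on either strand to CHR (TTTGAA), to CCAAT or to E2F (GCGNGAA), and in Mcm7 an E2F match overlaps a CCAAT match. For Mcm7 and Prc1, which have 2 promoters each in the table, the one shown is the first listed.
Cdc6, chr11:98907901-98908200, plus strand: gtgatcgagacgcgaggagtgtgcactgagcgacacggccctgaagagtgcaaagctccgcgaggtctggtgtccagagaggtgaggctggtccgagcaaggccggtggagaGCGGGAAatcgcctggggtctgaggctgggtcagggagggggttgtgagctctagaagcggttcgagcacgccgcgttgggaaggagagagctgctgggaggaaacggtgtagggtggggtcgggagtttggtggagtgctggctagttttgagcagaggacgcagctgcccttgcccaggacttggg
Mcm6, chr1:128359656-128359955, minus strand: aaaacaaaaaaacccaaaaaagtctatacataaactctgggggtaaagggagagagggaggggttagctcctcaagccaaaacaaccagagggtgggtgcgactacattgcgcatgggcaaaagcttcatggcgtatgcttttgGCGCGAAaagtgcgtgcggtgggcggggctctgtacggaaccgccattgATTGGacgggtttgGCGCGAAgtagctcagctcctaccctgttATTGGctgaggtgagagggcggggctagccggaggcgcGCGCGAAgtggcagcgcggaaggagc
Mcm7, chr5:138171834-138172133, minus strand: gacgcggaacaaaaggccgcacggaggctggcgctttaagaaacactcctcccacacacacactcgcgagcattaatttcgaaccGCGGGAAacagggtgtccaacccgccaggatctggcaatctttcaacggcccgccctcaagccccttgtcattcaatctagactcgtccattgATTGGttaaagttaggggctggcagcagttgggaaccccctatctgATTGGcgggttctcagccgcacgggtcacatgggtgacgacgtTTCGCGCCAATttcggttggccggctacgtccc
Cdc20, chr4:118437294-118437593, minus strand: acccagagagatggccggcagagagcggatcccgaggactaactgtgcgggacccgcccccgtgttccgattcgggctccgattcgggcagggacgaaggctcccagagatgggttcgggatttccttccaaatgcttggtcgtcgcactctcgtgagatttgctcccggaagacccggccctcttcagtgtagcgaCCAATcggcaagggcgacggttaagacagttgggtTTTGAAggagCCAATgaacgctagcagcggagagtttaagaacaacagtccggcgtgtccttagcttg
Prc1, chr7:80294201-80294500, plus strand: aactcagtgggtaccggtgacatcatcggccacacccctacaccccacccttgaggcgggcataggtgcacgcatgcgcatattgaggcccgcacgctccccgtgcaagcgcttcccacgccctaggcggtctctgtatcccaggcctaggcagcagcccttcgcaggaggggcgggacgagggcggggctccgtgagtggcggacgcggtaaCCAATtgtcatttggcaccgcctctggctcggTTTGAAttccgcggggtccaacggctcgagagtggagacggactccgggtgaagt
Kif11, chr19:37376132-37376431, plus strand: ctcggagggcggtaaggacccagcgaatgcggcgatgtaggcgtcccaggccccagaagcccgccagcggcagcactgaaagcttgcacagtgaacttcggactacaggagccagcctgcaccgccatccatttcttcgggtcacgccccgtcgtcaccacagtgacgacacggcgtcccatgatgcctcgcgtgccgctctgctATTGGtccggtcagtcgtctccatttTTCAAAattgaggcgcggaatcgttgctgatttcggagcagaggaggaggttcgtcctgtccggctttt
The promoter table held 41 of the 50 genes, 21 of G1/S and 20 of G2/M, with 46 promoters. It gave no entry for Ccnd1, Ccnd2, Ccne2, Mcm4, Gins2, Ccna2, Aurkb, Kif20a or Tpx2. CHR letters stood in 15 of 21 G2/M promoters (71.4%) and in 3 of 25 G1/S promoters (12%), against 17.9% of all 32851 promoters in the table. CCAAT stood in 19 of 21 G2/M promoters (90.5%) and 14 of 25 G1/S promoters (56%), against 37.4% of all. The E2F letters stood in 11 G1/S promoters (44%) and 1 G2/M promoter (4.76%), against 8.91% of all. The forms of the motifs were chosen after the promoters had been read, and a match describes letters, not a bound site.

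Levels are given on a log2 scale as the processed signal of a gene's brightest detected probe relative to the 75th percentile of its array, so that a level says how bright that probe was beside the rest of the array. A level is not comparable between genes. Differences are log2 and are also set against the median difference of all measured genes, which was 0.039 at 35 nmol and 0.038 at 70 nmol, both against TPA alone, and 0.0016 between the doses. All directions are relative to the other transcripts of the array. Scaling on the spike-in RNA instead lowers every difference from TPA alone by 0.36 at 70 nmol and by 0.42 at 35 nmol and adds 0.060 to those between doses, so most of the higher values described here turn into lower ones under it. With 1 array per group no difference has a replicate check and none was tested. The scanner software's own error of a difference ran between 0.20 and 0.31 for these genes, with a median of 0.20. That error is the software's estimate, not a measured spread. Repeated spots on 1 array spread less, with a median standard deviation between 0.034 and 0.045. In cells taken as a bulk, fewer cells of a type and less RNA per cell cannot be told apart.

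The arrays had 20200 (49.1%), 18910 (45.9%) and 18564 (45.1%) of 41174 probes well above background for TPA alone, 35 nmol and 70 nmol. As they shared 1 slide and 1 scan, effects of group and of array position cannot be told apart. All 8 macrophage markers were detected, and the log2 of their summed signal was 9.42, 9.58 and 9.44 in the same order. Such a sum follows its brightest probes, here also Lyz2, whose probe was left out of the differences. Over the other 7 the median difference relative to all genes was -0.062 at 35 nmol and -0.00010 at 70 nmol. At 70 nmol these 7 went opposite ways. Fcgr1 (0.76), Cd68 (0.24), Mertk (0.20) and Csf1r (0.038) were above TPA alone, and Adgre1 (-0.51), Cd14 (-0.24) and Itgam (-0.090) below.

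At 35 nmol nearly all cell cycle genes stood slightly above TPA alone relative to the array. Of the 47 measured, 45 lay above the median difference of all genes, where 50% of all genes lie by construction, and the 2 exceptions were Cdk4 and Aurkb. The median difference was 0.34 for the 23 G2/M genes and 0.23 for the 24 G1/S genes. At least 0.32 higher on the log2 scale, the smallest difference counted here, were 15 genes, 12 of G2/M and 3 of G1/S, against 9.06% of all 12733 genes measured. None was at least 0.32 lower (7.3% of all genes), and none differed 2-fold in either direction (1.12% of all genes higher, 0.298% lower). Under spike-in scaling the list medians turned to -0.082 for G2/M and -0.19 for G1/S, against -0.38 for all genes. Both lists were then below TPA alone but still above the median of all genes. Of the 47, 1 was at least 0.32 higher and 4 lower by that scaling, against 246 and 7928 of all 12733 genes. The difference was larger than the scanner error for 29 of the 47, a count that was not taken over all genes.

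At 70 nmol 8 of the 24 G1/S genes, among them the D-type cyclins, Cdk6 and E2f1, were at least 0.32 higher than in TPA alone, and none of the 23 G2/M genes was, against 14.8% of 12541 genes in all. The difference stayed within the scanner error for 13 G1/S genes, Cdk4 (-0.19) and E2f2 (0.13) among them, and for 18 G2/M genes. These counts, too, were not taken over all genes. The 24 G1/S genes had a median difference of 0.13, with 16 above the median of all genes, again against 50%. That median was smaller with quantile normalisation (0.043), cyclic loess (0.058) and normexp (0.059, with 13 of 24 above). The 23 G2/M genes had a median of 0.028 (-0.027 with quantile normalisation), with 10 above. Only Tyms and Nusap1 were at least 0.32 lower, against 11.1% of all genes. None differed 2-fold, against 1.63% of all genes higher and 1.08% lower. With spike-in scaling G1/S had a median of -0.24 and G2/M one of -0.33, against -0.32 for all genes. Of the 47 genes, 1 was then at least 0.32 higher and 21 lower, against 507 and 6279 of all 12541 genes. Both comparisons use the array of TPA alone, so they are not independent of each other.

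**Figure D1:**
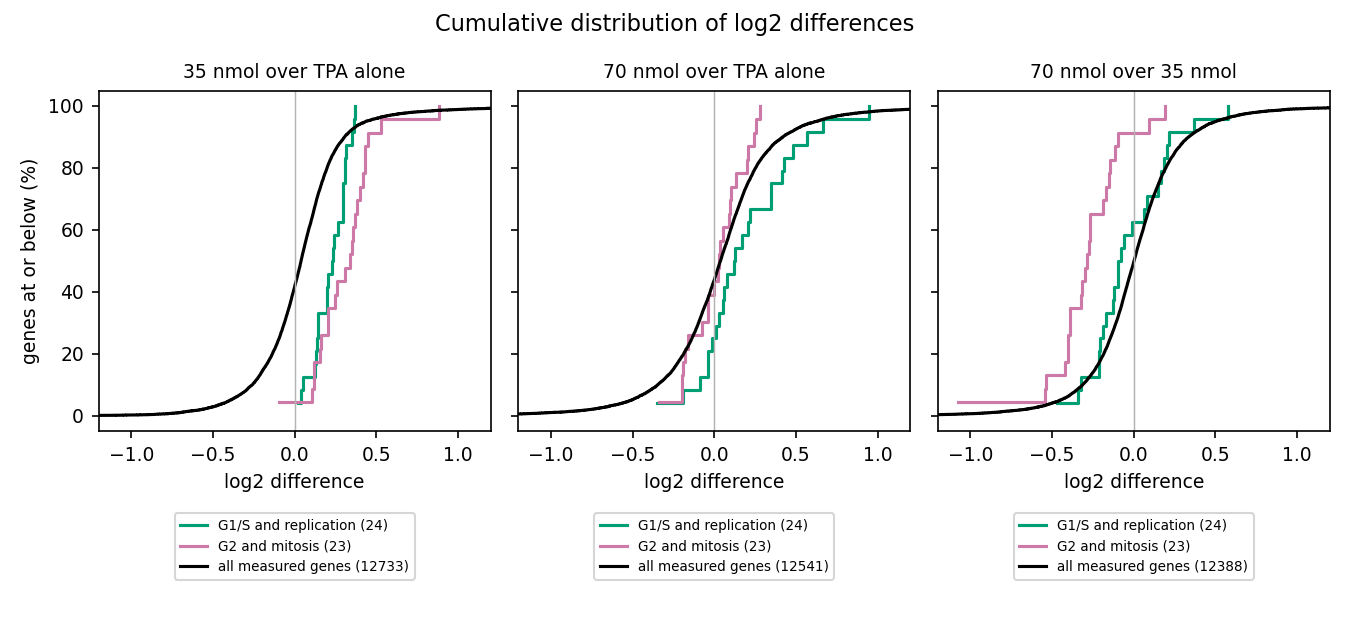
Cumulative share of genes (y axis, %) at or below each log2 difference (x axis), for the 24 G1/S and replication genes, the 23 G2 and mitosis genes and all measured genes, with 1 panel per comparison. At 35 nmol over TPA alone both gene groups lie right of all genes, and at 70 nmol over 35 nmol the G2 and mitosis genes lie to the left (median -0.29); spike-in scaling would move every curve of a panel together, by -0.42, -0.36 and 0.060 in panel order.

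Compared directly, the array at 70 nmol was lower than that at 35 nmol for 21 of 23 G2/M genes, and their median difference was -0.29. Relative to the median of all genes, 2 of the 23 were above it, and 9 of 24 G1/S genes, against 50% of all genes. The median of the G1/S genes was -0.086. At least 0.32 lower at 70 nmol were 11 genes, 9 of G2/M and 2 of G1/S, against 9.57% of 12388 genes, and at least 0.32 higher were 2, Ccnd1 and Cdk6, against 10.6%. Kif11 was the one gene that was 2-fold lower (0.718% of all genes), and none was 2-fold higher (0.92% of all). With spike-in scaling G2/M had a median of -0.23 and G1/S one of -0.026, the same direction as here.

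Ordered over the 3 arrays, 21 of 23 G2/M genes (91.3%) and 15 of 24 G1/S genes (62.5%) had their highest level at 35 nmol, against 32.4% of 12327 genes. The highest level was at 70 nmol for 2 G2/M genes, Aurkb and Bub1, and for 9 G1/S genes (37.5%), against 39.8% of all genes. For none of the 47 was it on the array of TPA alone, where 27.8% of all genes had theirs, but normexp put 2 G1/S genes there and quantile and cyclic loess normalisation 1 each. Levels ran upward in order over the 3 arrays for 9 of 24 G1/S genes (37.5%) and 1 of 23 G2/M genes (4.35%). The share was 25.7% for all genes, so G1/S lay above it and G2/M below. For the 47 genes it was 21.3%, or 10 genes. Those 10 were Ccnd1, Ccnd2, Ccnd3, Ccne1, Cdk6, E2f1, E2f2, Mcm3, Cdc6 and Bub1. With spike-in scaling, 36 of the 47 genes (76.6%) were highest on TPA alone, 5 at 35 nmol, all of G2/M, and 6 at 70 nmol, all of G1/S, while 86.0% of all genes were highest on TPA alone.

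**Figure D2:**
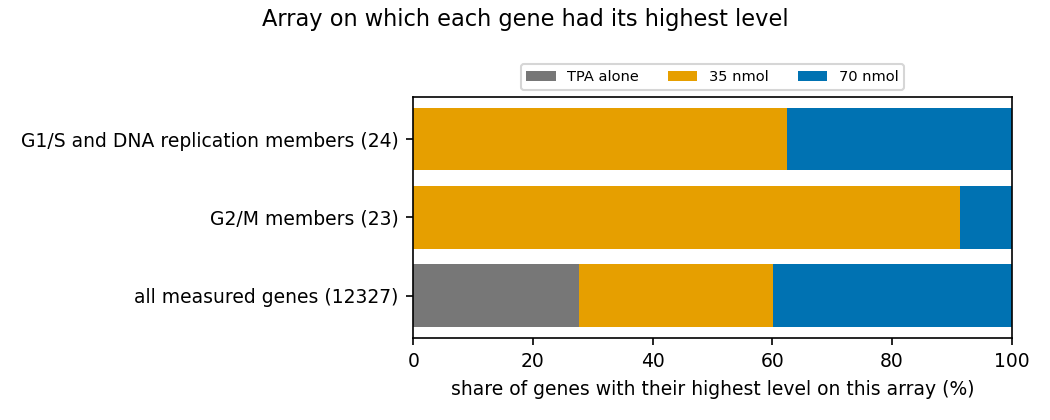
Share of genes (x axis, %) with their highest level on each of the 3 arrays, for the G1/S and replication genes, the G2/M genes and all genes measured on all 3 arrays, with levels relative to the 75th percentile of the array. The 35 nmol segment holds 91.3% of the G2/M genes, 62.5% of the G1/S genes and 32.4% of all genes; with spike-in scaling it holds 21.7%, 0% and 2.75%.

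The D-type cyclins are the first cyclins made when a cell is pushed out of rest. Ccnd1 had levels of 2.48 with TPA alone, 2.86 at 35 nmol and 3.43 at 70 nmol. It had the largest difference of all 47 genes at 70 nmol, 0.95 (1.93-fold), and 0.37 at 35 nmol. Its probe, at chr7:144739658-144739717 of mm8, was printed as 10 spots on every array, with standard deviations of 0.043, 0.042 and 0.025, and the spots of no 2 arrays overlapped. Ccnd2 had levels of 4.27, 4.62 and 4.83 for TPA alone, 35 nmol and 70 nmol, which is 0.35 higher at 35 nmol and 0.57 at 70 nmol. All 3 of its probes kept that order. Ccnd3 stood at 3.71, 3.90 and 4.05 and so was 0.20 and 0.35 above TPA alone at 35 and 70 nmol. With spike-in scaling Ccnd1 and Ccnd2 stay above TPA alone at 70 nmol and Ccnd3 does not, and none of these cyclins does at 35 nmol. Cdk6, Ccne1, E2f1 and Cdc6 also stay above it at 70 nmol, which makes 6 of the 24 G1/S genes.

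The kinases that the D-type cyclins activate did not share an order. Cdk6 had levels of 2.85, 3.14 and 3.51, or 0.30 above TPA alone at 35 nmol and 0.67 at 70 nmol. A dimmer Cdk6 probe read -1.45, -0.94 and -1.34 and was highest at 35 nmol, so the comparison between the doses depends on the probe. Cdk4 stood at 1.73, 1.75 and 1.54, with 0.019 at 35 nmol and -0.19 at 70 nmol, both within the scanner error. Cyclin E1, Ccne1, which with Cdk2 starts S phase, had levels of 1.85, 2.08 and 2.26, and a second probe kept the order. For cyclin E2, Ccne2, 1 probe (-3.58, -3.13 and -3.22) was well above background at 35 nmol only and another (-3.40, -5.47 and -4.46) on TPA alone only. Neither probe of Cdk2 was well above background on any array.

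The E2F activators carry the signal to the replication genes. E2f1 had levels of 1.28, 1.65 and 1.71 for TPA alone, 35 nmol and 70 nmol, giving 0.36 and 0.43. A second E2f1 probe with repeated spots averaged -1.28 ± 0.10 (n = 10 spots), -1.17 ± 0.10 (n = 10) and -0.81 ± 0.069 (n = 9, SD between spots). There the spots at 35 nmol overlapped those of TPA alone and the spots at 70 nmol overlapped neither. E2f3 read 1.91, 2.20 and 2.11, highest at 35 nmol with both measured probes. E2f2 differed by 0.048 at 35 nmol and 0.13 at 70 nmol, both under the scanner error of 0.20.

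**Figure D3:**
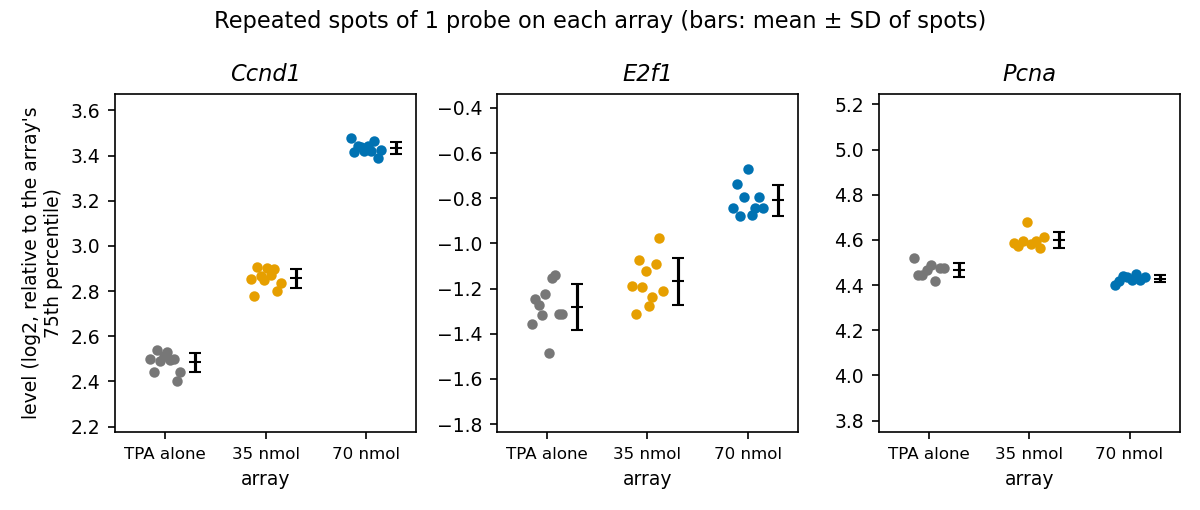
Levels (y axis, log2 relative to the 75th percentile of the array) of every repeated spot of 1 probe of Ccnd1, E2f1 and Pcna on the 3 arrays (x axis), with the mean ± SD of the spots; the spread is printing and scanning error on 1 array, not that between mice. Ccnd1 averages 2.48, 2.86 and 3.43 with no overlap of spots, whereas Pcna spans 4.43 to 4.60; with spike-in scaling the 35 and 70 nmol points would sit 0.42 and 0.36 lower relative to TPA alone.

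The 6 subunits of the MCM helicase were above the median of all genes at 35 nmol without exception, and their median difference there was 0.22, falling below zero with spike-in scaling. Mcm6 had levels of 5.33, 5.64 and 5.32, so that 70 nmol lay 0.012 below TPA alone and 35 nmol 0.31 above it. Mcm7 read 4.07, 4.33 and 4.13. The promoters of Mcm6 and Mcm7 printed above hold the E2F letters 3 times and 2 times. Mcm2 differed by 0.20 at 35 nmol and 0.014 at 70 nmol, Mcm4 by 0.14 and 0.077, and Mcm5 by 0.23 and 0.22. Mcm3 alone of the 6 was highest at 70 nmol, with levels of 3.14, 3.28 and 3.49, but a second Mcm3 probe read 1.58, 1.79 and 1.70.

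Of the factors that load and accompany the helicase, Cdc6, the loader, stood at -1.49, -1.18 and -1.01. It was 0.31 higher at 35 nmol and 0.48 higher at 70 nmol than with TPA alone, and its second probe kept that order. Cdt1, which loads MCM together with Cdc6, read 3.70, 4.00 and 3.87. Gins2, a subunit of the GINS complex of the active helicase, differed by 0.15 at 35 nmol and 0.051 at 70 nmol. Rfc4, part of the clamp loader, differed by 0.24 and 0.028. The sliding clamp itself, Pcna, averaged 4.47 ± 0.030, 4.60 ± 0.035 and 4.43 ± 0.016 over 8 spots per array (SD between spots). Its spots at 35 nmol overlapped neither of the others, and those at 70 nmol overlapped those of TPA alone.

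Enzymes that supply nucleotides for replication were highest at 35 nmol, all 4 of them, and lower at 70 nmol than at 35 nmol. Thymidylate synthase, Tyms, had levels of 2.84, 2.96 and 2.49, and was the G1/S gene with the largest negative difference at 70 nmol, -0.35 from TPA alone and -0.47 from 35 nmol. A second Tyms probe gave -0.34 and -0.39. Thymidine kinase, Tk1, read 2.36, 2.66 and 2.32, so only the 35 nmol array differed from TPA alone by more than the scanner error. The ribonucleotide reductase subunits Rrm1 and Rrm2 differed by 0.20 and 0.041 at 35 nmol, and by 0.12 and -0.087 at 70 nmol, all below the scanner error of 0.20 to 0.21.

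**Figure D4:**
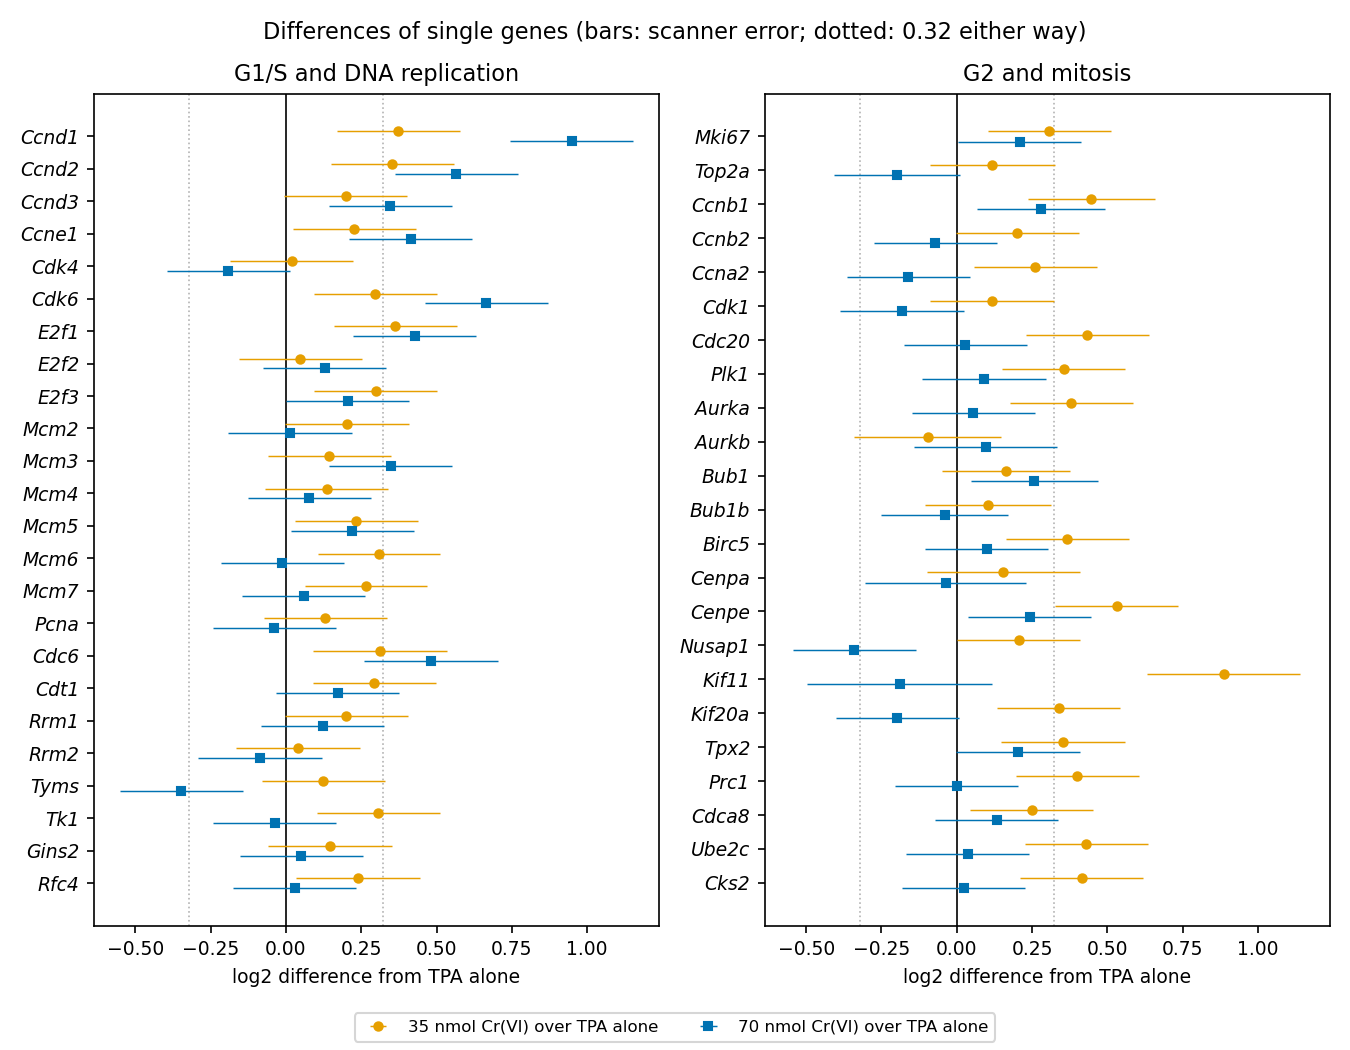
Log2 difference from TPA alone (x axis) at 35 nmol (circles) and 70 nmol (squares) for each of the 47 genes measured on all 3 arrays, with the scanner error as bars and 0.32 either way as dotted lines. Ccnd1 reaches 0.95 at 70 nmol and Kif11 0.89 at 35 nmol, and no G2/M gene passes the upper dotted line at 70 nmol; spike-in scaling would shift the circles by -0.42 and the squares by -0.36.

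The cyclins that act in G2 with Cdk1, the kinase that starts mitosis, were each highest at 35 nmol. Ccnb1 had levels of -0.66, -0.21 and -0.38 for TPA alone, 35 nmol and 70 nmol, or 0.45 above TPA alone at 35 nmol and 0.28 at 70 nmol. Its 2 dimmer probes gave 0.36 and 0.26 at 35 nmol, and 0.10 and -0.13 at 70 nmol, so the sign at 70 nmol depends on the probe. Ccnb2 read 3.63, 3.83 and 3.56. Cyclin A2, Ccna2, which serves both S phase and G2, stood at 2.58, 2.85 and 2.42, which makes 70 nmol 0.42 lower than 35 nmol. Cdk1 itself differed by 0.12 at 35 nmol and -0.18 at 70 nmol, within the scanner error of 0.21. Its partner Cks2 read 2.53, 2.95 and 2.55, and a second probe was likewise highest at 35 nmol.

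Among the mitotic kinases, Plk1 had levels of 1.69, 2.05 and 1.78, and Aurka, which matures the spindle poles, 2.35, 2.73 and 2.40. Of the chromosomal passenger complex, survivin (Birc5) read 3.53, 3.90 and 3.63. Aurkb, the kinase of that complex, was the one G2/M gene below TPA alone at 35 nmol, with a difference of -0.097 there and of 0.096 at 70 nmol, both within the scanner error. Borealin (Cdca8) read 3.16, 3.41 and 3.29 with its brightest probe, but -1.43, -1.75 and -2.11 with a dimmer one that was highest on TPA alone. No direction can therefore be given for Cdca8.

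The anaphase-promoting complex ends mitosis by marking cyclin B and securin for destruction. Its activator Cdc20 stood at 3.28, 3.71 and 3.30 and its ubiquitin-conjugating enzyme Ube2c at 1.65, 2.08 and 1.69. For both, 35 nmol was 0.43 above TPA alone, while 70 nmol differed from it by 0.028 (Cdc20) and 0.037 (Ube2c). The Cdc20 promoter printed above holds CHR letters, beginning at -18 from the start, between 2 CCAAT matches. The checkpoint kinase Bub1 differed by 0.16 at 35 nmol and 0.26 at 70 nmol, and its relative Bub1b by 0.10 and -0.040. Ttk, another checkpoint kinase, had 1 probe, and it was not well above background on any array.

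Genes of the centromere, spindle and spindle motors included the largest differences at 35 nmol. Cenpe, a kinesin that carries chromosomes to the spindle equator, had levels of 3.33, 3.86 and 3.57, so that it was 0.53 above TPA alone at 35 nmol and 0.24 at 70 nmol. The microtubule crosslinker Prc1 read 2.11, 2.51 and 2.11, and Tpx2, a spindle assembly factor, 0.55, 0.90 and 0.75. Kif20a, a kinesin of cytokinesis, read 2.86, 3.20 and 2.66, and its second probe also lay lowest at 70 nmol. Nusap1, which binds spindle microtubules, stood at 0.55 at 70 nmol, against 0.89 with TPA alone, and that difference of -0.34 was the lowest of the G2/M genes. At 35 nmol Nusap1 was 0.21 above TPA alone. Cenpa, the histone of the centromere, differed by 0.15 and -0.037 at 35 and 70 nmol.

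Kif11, the kinesin that pushes the spindle poles apart, had the largest difference of all 47 genes at 35 nmol but was dim. Its levels were -2.43, -1.55 and -2.62, while the dimmest probes well above background lay at -3.65, -3.42 and -3.26. That is 0.89 above TPA alone at 35 nmol, and 1.08 lower at 70 nmol than at 35 nmol (0.474-fold). With normexp background correction Kif11 differed by 0.57 at 35 nmol and by -0.57 between the doses, relative to all genes. The probe lies at chr19:37486409-37486468 of mm8. Another Kif11 probe was well above background on TPA alone only, at -2.24, and so goes against the first. The promoters of Kif11 and Prc1 each hold CHR letters near the start, beginning at -19 and -5.

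Of the proteins used to recognise dividing cells, Mki67, the Ki-67 antigen that coats mitotic chromosomes, had levels of 3.92, 4.22 and 4.13. Its second probe, at 1.81, 2.01 and 1.92, kept that order. Topoisomerase II alpha, Top2a, which untangles sister chromatids, read -0.25, -0.13 and -0.45. That is 0.12 above TPA alone at 35 nmol and -0.20 from it at 70 nmol, and a dimmer probe gave -0.023 and -0.21. Over all 15 genes with several measured probes, the probes had the same sign for 13 at 35 nmol and 12 at 70 nmol against TPA alone, and for 13 between the doses. Over all genes with several probes they did for 2336 of 4196, 2536 of 4122 and 2553 of 4073, in the same order.

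The remaining pathway genes were described from 8 further lists of 151 genes, 147 of them on the array. At 35 nmol, 95 of 141 measured lay above the median of all genes (67.4%), with a median 0.10 above it. At least 0.32 higher were 18 (12.8%, against 9.06% of all genes), and at least 0.32 lower were 4 (2.84%, against 7.3% of all genes). At 70 nmol 53 of 138 lay above it (38.4%). There 3 genes were at least 0.32 higher (2.17%, against 14.8% of all genes) and 9 lower (6.52%, against 11.1%). Between the doses, of 138 measured, 70 nmol was at least 0.32 higher for 4 (2.90%, against 10.6% of all genes). It was at least 0.32 lower for 22 (15.9%, against 9.57%).

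Among the regulators in these lists, E2f7 and E2f8, repressors that close the E2F wave, differed by 0.44 and 0.41 at 35 nmol, and by -0.11 and 0.0044 at 70 nmol. Mybl2, which switches on G2/M genes, read -0.66, -0.29 and -0.40. Cdc25a, the phosphatase that frees Cdk2, was one of 3 genes of these lists, with Shmt1 and Cit, at least 0.32 higher at both doses, with levels of -1.89, -1.37 and -1.31, differences of 0.53 and 0.59. Cyclin F, Ccnf, differed by 0.36 and 0.069, and Fbxo5, an inhibitor of the anaphase-promoting complex, by 0.29 and -0.18.

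Origin and fork factors did not share 1 order. Mcm10, which helps the helicase to fire, read 2.60, 2.98 and 2.86. Cdc45, its partner in the active helicase, was level at 35 nmol (-0.00094) but 0.71 below TPA alone at 70 nmol. Dbf4, the activator of the Cdc7 kinase, differed by -0.51 and -0.094. Pola1 and Prim2, of the polymerase that lays down primers, differed by 0.027 and 0.16 at 35 nmol, and by -0.38 and -0.37 at 70 nmol. Chaf1b, which places histones on new DNA, stood at 2.44, 2.97 and 2.54. Of nucleotide enzymes, Ctps differed by 0.43 and 0.18 and Shmt1 by 0.42 and 0.61 at 35 and 70 nmol.

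Genes of chromosome structure and cell division closed the lists. Kinetochore genes Ndc80 and Spc25 differed by -0.15 and 0.077 at 35 nmol and by -0.49 and -0.41 at 70 nmol, while Cenpn differed by 0.53 and 0.076. The condensin subunits Ncapg2 and Ncaph differed by 0.26 and -0.026 at 35 nmol, and by 0.028 and -0.53 at 70 nmol. The tubulin gene Tubb5 read 6.82, 7.24 and 6.98. The kinesin Kif4 differed by 0.51 and 0.017, and citron kinase, Cit, by 0.69 and 0.45. Melk, a kinase of dividing cells, had levels of 0.57, 0.28 and -0.29, which at -0.86 was the largest difference from TPA alone at 70 nmol in these lists.

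Transcripts of other cells moved beside the cell cycle genes. Hepatocyte genes were highest at 35 nmol, as were the G2/M genes: 11 of 12 were detected, all 11 were at least 2-fold higher than with TPA alone, and their summed level was 4.53, 6.20 and -0.85 for TPA alone, 35 nmol and 70 nmol. Only Ttr of that list was not well above background on any array. At 70 nmol only Alb and Fbp1 were well above background, so the sum there also holds values below that flag. Eosinophil genes were also highest at 35 nmol, with summed levels of 0.81, 1.42 and 1.02 over 3 of 5 genes on the array, while the granule proteins Epx and Prg2 were not detected. Erythroid genes took the opposite order, 6.07, 3.54 and 5.14, and Epb42 of that list was not detected.

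Fibroblast and mesothelial genes were highest at 70 nmol, as were the D-type cyclins. Fibroblast genes had summed levels of 3.26, 3.44 and 5.03 with all 6 detected, but Lum and Pdgfra at 70 nmol only. Mesothelial genes summed to -1.06, -0.94 and -0.13 over 3 of 6, without Upk3b, Lrrn4 and Upk1b, and with Wt1 detected at 70 nmol only. The 4 fibroblast genes measured against TPA alone were 1.30 to 2.06 above it at 70 nmol. The 2 mesothelial genes so measured were 0.68 and 0.98 above it. Genes of granulocyte and monocyte precursors, which divide in the marrow, summed to 1.30, 1.56 and 1.99 over 5 of 7, with Elane and Ms4a3 not detected. At 70 nmol their members went opposite ways, with Mpo (1.07), Ctsg (1.55) and Cd34 (1.33) above TPA alone and Prtn3 (-0.35) and Kit (-0.73) below. Monocyte and small peritoneal macrophage genes summed to 8.20, 8.18 and 8.27 over 5 of 6, without Cd209a, a sum that bright Fn1 dominates. Their median relative to all genes was -0.039 at 35 nmol and 0.59 at 70 nmol, where F13a1 (1.24), Ccr2 (0.76), Ly6c1 (0.63) and Irf4 (0.35) were above TPA alone and Fn1 (-0.25) below. Neutrophil genes summed to 2.88, 2.21 and 3.65 over 5 of 8, without Ngp, Camp and Ltf, and the sum follows S100a9. Their members also went opposite ways: the median relative to all genes was -1.28 at 35 nmol and 0.42 at 70 nmol, Cxcr2 (-2.07 and -1.39) and Lcn2 (-1.46 and -1.29) lay below TPA alone at both doses, and Retnlg (1.98 and 1.03) above.

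In the remaining lists the summed levels were 9.35, 9.48 and 9.36 for large peritoneal macrophages, 4.59, 3.72 and 2.87 for mast cells, 8.03, 7.98 and 7.67 for B cells and 4.43, 4.49 and 4.57 for T and NK cells. Tpsab1 and Ms4a2 of the mast cell list and Cd4 of the T and NK cell list were not well above background on any array. The median of large peritoneal macrophage genes, relative to all genes, was -0.32 at 35 nmol and -1.12 at 70 nmol. Their sum follows bright Icam2, whose probe was left out of the differences, and Cd5l, which was above TPA alone (0.13 and 0.37). At 70 nmol 6 of the 7 measured were below TPA alone. Whether any of these cells carried the differences of the cell cycle genes was not tested.

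**Figure D5:**
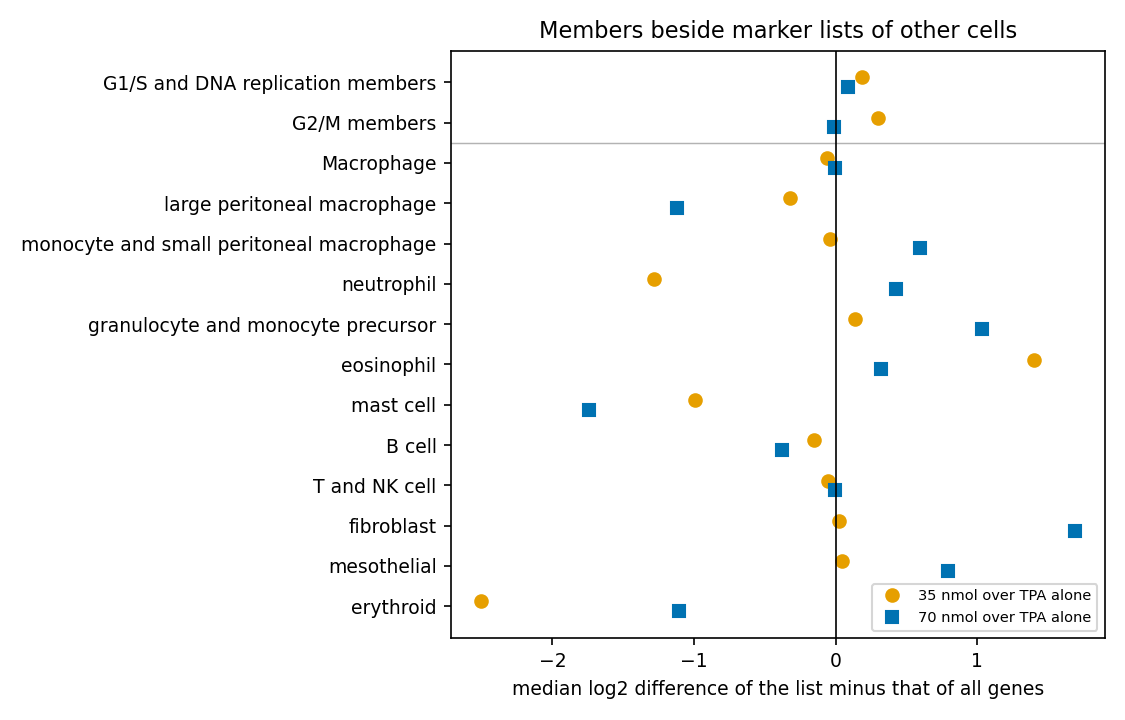
Median log2 difference from TPA alone of each list minus that of all measured genes (x axis), at 35 nmol (circles) and 70 nmol (squares), for the 2 groups of cell cycle genes and 12 lists of cell type markers (y axis); being relative to all genes, the values do not move with spike-in scaling. The cell cycle lists lie between -0.010 and 0.30, within the span of the marker lists. Hepatocyte genes, at 1.63 (11 genes measured) and -4.29 (2 genes measured), are off the scale and left out.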

How the data were processed

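RNA from each group was hybridised to 1 Agilent whole-genome mouse array in 1 colour (Cy3), 3 arrays in all, grouped by the labels. The authors' spot intensities came from Feature Extraction 10.5.1.1, per the file headers, with background subtracted and each array detrended, and probe positions on build mm8. The deposited table of the authors is in log2 and equals the scaled scanner values plus a constant within 0.01 for 99.8%, 99.8% and 99.9% of probes for TPA alone, 35 nmol and 70 nmol. Its column medians were -3.60, -3.74 and -3.78, genes were not centred, and the table was used as an alternative.

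From the intensities, the log2 processed signal minus the 75th percentile of its array (8.07, 7.69 and 7.74) was taken over 43379 spots that are not controls, without outlier spots, and averaged per probe (41174 probes). Repeated spots had a median standard deviation of 0.043, 0.045 and 0.034. Well above background is the scanner software's flag, set in the file headers at a multiple of 13. Probes were named by accession (24375), symbol (6301) or synonym (2426) in the RefSeq table of GRCm38.p6, and 8072 kept the file's name. A gene took its brightest probe well above background on at least 1 array, and counted as measured between 2 arrays if, on both, that probe passed the flag and was neither saturated nor an outlier.

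The genes and lists were chosen with earlier results of these data known. Named were all members and, from each of the other pathway lists, up to 3 genes with the largest difference from TPA alone. Some results under this rule are not reported here. Having 1 array per group allowed no test and limits the precision, so counts past 0.32 (log2) and 2-fold are set beside those of all genes. Steps were tested on simulated data. Alternatives were normexp (offset 50), quantile, cyclic loess, scaling on the median of detected probes or on spike-in RNA (4 of 10 probes), looser and stricter filters on dim probes (the stricter at 4 times the lowest signal), the mean over probes, the deposited table and a 1.5-fold threshold. Software was limma 3.58.1 (R 4.3.3), and pandas 2.3.3, numpy 2.4.6 and matplotlib 3.10.9 (Python 3.11.15).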

Additional observations from a re-analysis of the deposited data

How the results depend on the processing

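Under the alternatives, 195 values of gene groups stayed within 1.5 times the reported count or within the spread of repeated spots, and 27 moved further. Relative to all genes, the G2/M shift at 35 nmol ranged between 0.22 and 0.32 over all alternatives, and that of 70 nmol over 35 nmol between -0.29 and -0.25. With normexp the shifts were 0.12 (G1/S) and 0.22 (G2/M) at 35 nmol and 0.032 (G1/S) at 70 nmol, against 0.19, 0.30 and 0.087 as reported, and 3 G2/M genes ran upward in order with dose in place of 1. Counts past 0.32 (log2), against TPA alone, moved as follows. At 70 nmol the 8 genes higher became 5 with normexp and 1 with spike-in RNA, and the 2 lower became 1 and 21. At 35 nmol the 15 higher became 5 with normexp, 9 with quantile normalisation and 1 with spike-in RNA, and 0 lower became 4 with spike-in RNA. Over all genes, spike-in RNA gave 507 higher and 6279 lower at 70 nmol (1858 and 1395 as reported) and 246 and 7928 at 35 nmol (1154 and 929), and normexp gave 709 and 326 at 35 nmol, 823 lower at 70 nmol, and 755 higher and 664 lower between the doses (1312 and 1185 as reported). A looser filter on dim probes gave 2432 lower at 70 nmol, 1811 lower at 35 nmol and 1777 lower between the doses, and a stricter one 754, 383 and 703 lower, with 678 higher at 35 nmol and 753 higher between the doses. At 1.5-fold, 2 genes were higher and 0 lower at 70 nmol, 1 was higher at 35 nmol, and 0 were higher and 1 lower at 70 nmol than at 35 nmol. The counts at 1.5-fold have no share of all genes beside them. With the mean over probes 1 gene was at least 0.32 higher at 70 nmol than at 35 nmol in place of 2, and Cdk6, 70 nmol over 35 nmol, turned to -0.020 relative to all genes, as its probes disagree. The stricter filter left 20 G2/M genes, of which 1 lay above the median of all genes between the doses. The counts by highest array under other normalisations were added after seeing the data. With spike-in RNA, 0 G1/S and 5 G2/M genes were highest at 35 nmol, 0 G2/M genes at 70 nmol, and 0 genes ran upward in order, with 5 and 6 of the 47 highest at 35 and 70 nmol. Spike-in scaling rests on 4 probes. Dim genes such as Kif11 are limited by their signal over background. No paired analysis was possible because each group has 1 array.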
